A study of Mus musculus with 2 samples.

Results

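Myoepithelial and basal epithelial nuclei of the mouse salivary gland were selected by RNA content from single-nucleus libraries of whole gland taken at 20 days of age, without enrichment for any cell type. Of 142799 barcodes, 501 met the rule, 250 in the Csf2-/- library and 251 in the Csf2+/- library. The rule kept barcodes with at least 1000 UMIs (unique molecular identifiers, each 1 counted RNA molecule) and under 27% of UMIs from 8 abundant secretory genes (Mucl2, Scgb1b27, Scgb2b27, Prol1, Smgc, Scgb2b26, Pip and Car6). Of these gated nuclei it kept those with a UMI in at least 3 of 9 genes (Acta2, Cnn1, Oxtr, Krt14, Krt5, Trp63, Mylk, Actg2 and Myh11), at least 1 of them being Krt5, Krt14, Trp63 or Oxtr. The tissue had the genotype C56BL/6 Csf2-/- in 1 library and C56BL/6 Csf2+/- in the other, both spelled as in the labels, so the heterozygous control also carried a Csf2 null allele. The labels do not give the number or sex of the animals. With 1 library per genotype there is no replicate, no test between genotypes was possible, and differences are given between the 2 libraries only. The 95% intervals cover counting error only.

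Myoepithelial cells are flat, contractile epithelial cells that lie between the secretory acini and intercalated ducts and the basement membrane. They carry the actin and myosin apparatus of smooth muscle inside an epithelial cell that also holds basal keratins, hemidesmosomes and the transcription factor p63, and they squeeze saliva out of the acini when autonomic nerves are active. Basal cells of the larger ducts share the keratins and p63 and have less of the contractile apparatus. Csf2 encodes GM-CSF, a cytokine that acts on myeloid cells.

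The Csf2-/- library held 75630815 UMIs in 74339 barcodes and the Csf2+/- library 76002888 UMIs in 68460 barcodes, of which 13096 and 8384 passed the gate. Csf2 had 0 UMIs in the whole Csf2-/- library and 5 in the Csf2+/- library, too few to check the labels, and had 0 UMIs in the members of either. Barcodes under 1000 UMIs with at least 27% secretory UMIs, which hold mostly RNA free in the suspension, had 45.5% secretory UMIs in the Csf2-/- library and 36.8% in the Csf2+/- library. Of the 1367 barcodes that occurred in both libraries, 0 were members in both. The doublet caller Scrublet marked 9 of 13096 and 3 of 8384 gated barcodes and 0 members, which is too few for it to have worked, so doublets were left in.

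The members had a median of 2279 UMIs in the Csf2-/- library and 3013 in the Csf2+/- library, against 2004.5 and 2824 in the other gated nuclei. The median secretory share was 16.6% in Csf2-/- members and 12.8% in Csf2+/- members. In the Csf2-/- library 4 members stood apart, with 171879, 35045, 34703 and 32429 UMIs, while its next member had 11107 and the highest Csf2+/- member 13648. These 4 barcodes held 30.6% of the UMIs of the Csf2-/- members but only 3, 5, 2 and 4 UMIs of Trp63. The barcode with 171879 UMIs also held 8 of 11 pericyte markers, 8 of 9 fibroblast markers, 9 of 9 endothelial markers and 8 of 9 macrophage markers. Most ratios between the libraries are therefore given with and without these 4 barcodes, a choice made after their depth had been seen. Other values of the Csf2-/- members, those over other nuclei among them, include these 4 barcodes unless stated.

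**Figure D1:**
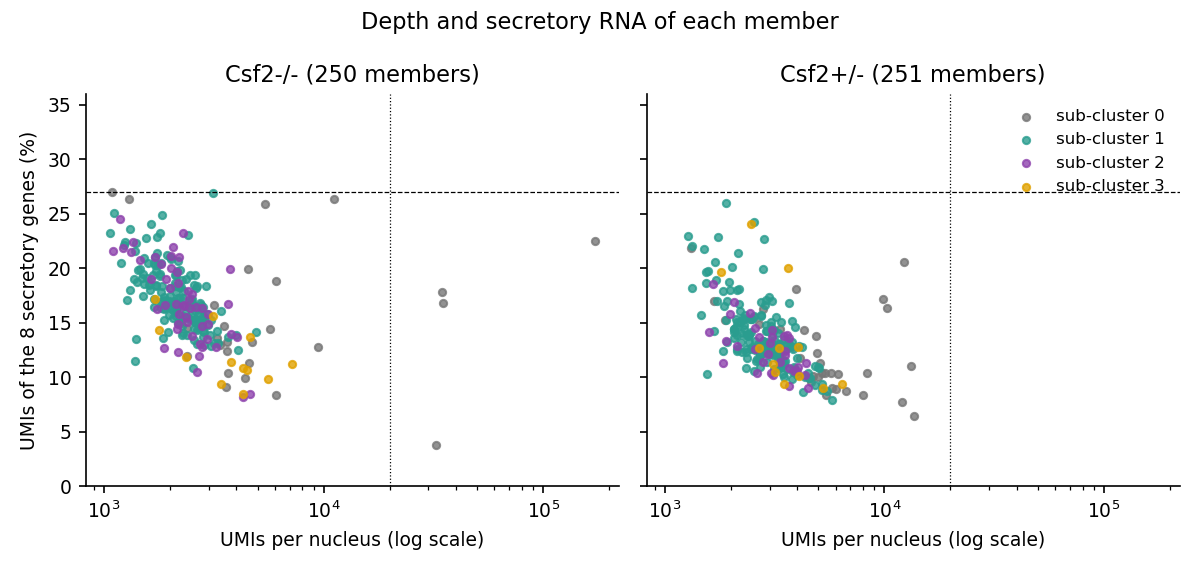
UMIs per nucleus (log scale) against the percentage of UMIs from the 8 secretory genes, 1 point per member, Csf2-/- left and Csf2+/- right, coloured by sub-cluster, a grouping of the members by their RNA. The dashed line is the 27% limit and the dotted line marks 20000 UMIs; 4 Csf2-/- members and 0 Csf2+/- members lie to its right.

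The rule genes themselves describe the selection and are given without any reading. Myh11, the smooth muscle myosin heavy chain, had a UMI in 92.8% of Csf2-/- members and 95.6% of Csf2+/- members, against 3.60% and 3.86% of the other gated nuclei. Trp63, which encodes p63, had a UMI in 90.0% of Csf2-/- members and 93.2% of Csf2+/- members, against 1.99% and 3.0% of the others. Mylk, the myosin light chain kinase, was found in 77.2% of Csf2-/- and 80.9% of Csf2+/- members. Acta2, the smooth muscle alpha actin, was found in 63.2% and 60.6%, and the actin-binding calponin gene Cnn1 in 28.4% and 19.9%, again Csf2-/- before Csf2+/-. The 2 basal keratin genes were sparse: Krt14 was found in 17.6% of Csf2-/- and 19.1% of Csf2+/- members, and Krt5 in 15.2% and 13.1%. Actg2, the gamma smooth muscle actin, was found in 4.4% of Csf2-/- members and 6.37% of Csf2+/- members.

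Oxtr, the oxytocin receptor gene, had no part in the selection. It had a UMI in 0 of 250 Csf2-/- members, which allows a share of up to 1.2%, and in 0 of 251 Csf2+/- members, which allows up to 1.2%, a limit on nuclei with a UMI and not on nuclei that express the gene. The whole Csf2-/- library held 1 Oxtr UMI and the whole Csf2+/- library 4.

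**Figure D2:**
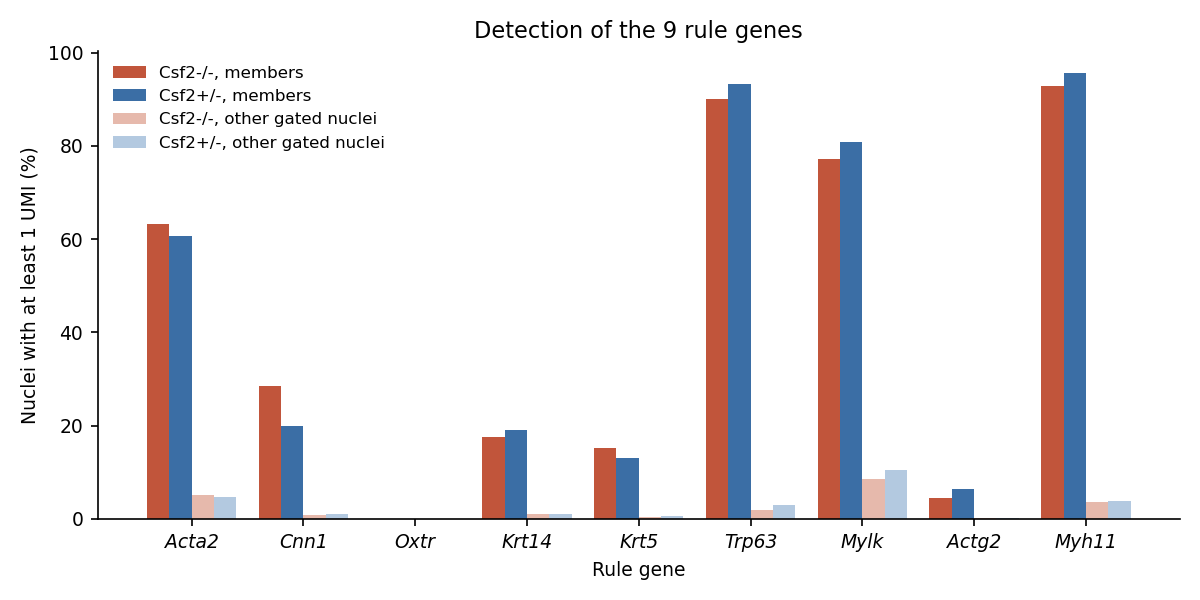
Percentage of nuclei with at least 1 UMI of each rule gene, for Csf2-/- and Csf2+/- members (dark bars) and for the other gated nuclei of each library (pale bars). Myh11, Trp63, Mylk and Acta2 carry the selection, and Oxtr is at 0% in the members.

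Trp63 and Myh11 had UMIs in the same nucleus in 209 of 250 Csf2-/- and 223 of 251 Csf2+/- members. In each library 1 member lacked all 5 contractile rule genes. With Oxtr at 0, the rule admits such a nucleus only where Krt5, Krt14 and Trp63 are all found, so it leaves hardly any room for basal cells without a contractile gene. Krt5 or Krt14 was found in 78 Csf2-/- and 78 Csf2+/- members, of which 25 and 17 had no Trp63 UMI. Krt17 and Krt15, keratins of basal cells, had 19 and 2 UMIs in Csf2-/- members and 12 and 1 UMIs in Csf2+/- members.

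The number of rule genes found per member was 3 in 99 Csf2-/- and 101 Csf2+/- members, 4 in 92 and 93, 5 in 48 and 44, 6 in 10 and 11, 7 in 1 and 1, and 8 in 0 and 1. Just outside the rule lay 129 Csf2-/- and 106 Csf2+/- gated nuclei with exactly 2 rule genes, 1 of them basal, and 55 and 25 nuclei with 3 or more rule genes but no basal one. Another 7 and 9 barcodes had 3 or more rule genes but too many secretory UMIs, and 1 and 1 had too few UMIs.

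Vascular smooth muscle and pericytes share the contractile genes, and their own markers stood near the level of free RNA in the members. The 11 pericyte and smooth muscle markers (such as Rgs5, Pdgfrb and Notch3) summed to 63.7 CPM (counts scaled to a common total of UMIs) in Csf2-/- members (51.6 without the 4 deepest barcodes) and 48.8 in Csf2+/- members. In the 66 Csf2-/- and 62 Csf2+/- nuclei chosen by those markers, called pericytes here, the sums were 2068 and 1428 CPM. They were 92.4 and 83.6 in the other gated nuclei and 44.0 and 46.3 in the free RNA. Only 12.1% and 8.06% of the pericytes had a Myh11 UMI and 10.6% and 6.45% an Acta2 UMI, so they say little about vascular smooth muscle. At least 3 fibroblast markers were found in 59.1% and 75.8% of them. Kcnj8, a pericyte potassium channel gene, had 0 UMIs in the members of both libraries. Of the Schwann cell markers, Foxd3 was at 0 in both, while Ncam1, a cell adhesion gene that several cell types use, had 82 UMIs in Csf2-/- and 125 in Csf2+/- members. Acinar RNA was present throughout: the 7 acinar markers summed to 6079 CPM in Csf2-/- members (4856 without the 4 deepest) and 2364 in Csf2+/- members, against 13256 and 5569 CPM in the free RNA.

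The members made up 1.91% (1.68 to 2.16) of the gated Csf2-/- nuclei and 2.99% (2.64 to 3.38) of the gated Csf2+/- nuclei, a log2 ratio of -0.65. The gate itself passed different numbers in the 2 libraries. The ratio lay nearer to 0 at a minimum of 2000 UMIs (-0.34, -0.64 to -0.04) and under 15% secretory UMIs (-0.31, -0.71 to 0.09). Of all barcodes in the files the members were 0.336% (0.296 to 0.381) in the Csf2-/- library and 0.367% (0.323 to 0.415) in the Csf2+/- library, a log2 ratio of -0.12 (-0.38 to 0.13). With each barcode thinned to 1000 UMIs before the rule, 123 of 13041 Csf2-/- nuclei (0.943%, 0.784 to 1.12) and 91 of 8370 Csf2+/- nuclei (1.09%, 0.876 to 1.33) were members, a log2 ratio of -0.21 whose interval spans 0.

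All genes, the rule genes included, were next set against all other gated nuclei of the same library. These ratios describe what travels with the rule genes and are not tests, since the rule chose the nuclei. A gene was called where its summed CPM in the members was at least 2-fold that of the others in both libraries. The genes compared were the 5887 with at least 50 member UMIs over both libraries, 7 of them rule genes. Of these 5887 genes, 495 (8.41%) were at least 2-fold higher, all 7 rule genes among them, and 62 (1.05%) at least 2-fold lower. The minimum was set on the members and not on the other nuclei, so it favoured genes high in the members. The numbers higher and lower, and the shares of measured list genes given below, therefore depend in part on this minimum.

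Contractile genes led. Of 19 genes listed, 17 were measured and 14 of those exceeded the remaining gated nuclei at least 2-fold in both libraries. Their median log2 ratios were 2.40 in Csf2-/- and 2.64 in Csf2+/- members, over the 17 measured genes. Without the 4 deepest barcodes 15 genes did so, and the Csf2-/- median was 2.88. Synpo2, which binds actin in the contractile apparatus, had 259 CPM in Csf2-/- and 367 in Csf2+/- members, against 6.41 and 6.77 in the other nuclei. Lmod1, a leiomodin that seeds actin filaments in smooth muscle, had 135 and 137 CPM in members, log2 ratios of 4.23 and 4.99. The filament crosslinker Flna stood at log2 3.29 and 3.33 and the tropomyosin gene Tpm1 at 2.86 and 3.0. Cald1, Ppp1r12b and, in the Csf2-/- library, Actn1 were under 2-fold. Synpo2 also separated the members from pericytes, which had 34.1 CPM (7 UMIs) in the Csf2-/- and 7.74 CPM (2 UMIs) in the Csf2+/- library. Prkg1, the cGMP-dependent kinase that relaxes smooth muscle, did not: it had 2286 and 3224 CPM in members, and 1937 and 1816 in pericytes. Ppp1r14a and Kcnmb1 were under 50 UMIs.

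The coactivators of this programme were less marked. Of 8 regulators listed 6 were measured and 2 were at least 2-fold higher in both libraries: Tead1, a partner of YAP, at log2 2.18 and 2.49, and Mrtfa, a coactivator of serum response factor, at 1.10 and 1.21. Myocd, the smooth muscle coactivator myocardin, had 0 UMIs in the members of both libraries, and Srf had 11 and 16.

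Serum response factor binds the CArG box, a short A/T-rich element found in many smooth muscle promoters. The promoters of Acta2 (chr19:34255324-34255623, minus strand) and Myl9, a myosin light chain gene (chr2:156775214-156775513, plus strand), are shown because they hold CArG boxes. Acta2 is a rule gene, so its presence in these nuclei was set by the rule, while Myl9 belongs to the contractile list. The sequences are from RefSeq on GRCm38.p6 and run from 250 bases before to 50 bases after the gene's start. Capitals mark the boxes, allowing 1 inner base other than A or T, and the motif reads the same on both strands.
Acta2: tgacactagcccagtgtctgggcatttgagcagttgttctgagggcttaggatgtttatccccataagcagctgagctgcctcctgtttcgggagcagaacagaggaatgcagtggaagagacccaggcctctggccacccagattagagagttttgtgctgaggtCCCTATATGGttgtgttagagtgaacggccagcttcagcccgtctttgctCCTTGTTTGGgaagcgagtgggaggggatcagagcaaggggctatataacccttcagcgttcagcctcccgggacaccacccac
Myl9: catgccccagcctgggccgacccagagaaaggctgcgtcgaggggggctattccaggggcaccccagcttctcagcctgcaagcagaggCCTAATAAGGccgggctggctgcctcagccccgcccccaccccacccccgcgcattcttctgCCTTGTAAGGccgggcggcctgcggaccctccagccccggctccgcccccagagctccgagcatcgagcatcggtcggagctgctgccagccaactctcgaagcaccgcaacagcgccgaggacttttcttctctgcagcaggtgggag
In Acta2 the boxes begin 84 and 34 bases before the start, and in Myl9 161 and 99 bases before it. Promoters were found for 17 of the 19 contractile genes, and Myl9, Pdlim3 and Vcl of the list held a box. Counted by promoter, 3 of 21 (14.3%) of the list held a box. Of the 9 rule genes 6 had a promoter entry, and Acta2 alone held a box. Over all 32851 promoters 9.98% held one. Myl9 had 31.3 CPM in Csf2-/- members and 34.5 in Csf2+/- members, log2 2.46 and 3.46 over the other nuclei.

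Genes of basal attachment followed. Of 15 listed, 12 were measured and 7 were at least 2-fold higher in both libraries, with medians of 1.52 in Csf2-/- and 1.67 in Csf2+/- members. Without the 4 deepest barcodes 8 were, and the Csf2-/- median was 1.85. Col17a1, the transmembrane collagen of hemidesmosomes, had 106 and 125 CPM in members against 4.22 and 3.82 in the others. Lama3, a chain of the laminin that anchors basal cells, had 223 and 313 CPM against 10.6 and 11.5, and its partner Lamb3 stood at log2 2.06 and 2.64. Cdh3, or P-cadherin, had 107 CPM in Csf2-/- and 151 in Csf2+/- members against 5.49 and 5.02 in the others. Col17a1 had 0 UMIs in pericyte nuclei of both libraries. The integrin gene Itgb4 straddled the limit at 1.08 and 0.97, and Col7a1 was lower than in the other nuclei at -0.58 and -0.18.

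In the basement membrane list, 14 of 18 genes were measured and 7 were at least 2-fold higher in both libraries, or 8 without the 4 deepest barcodes. Col4a6, which pairs with Col4a5 under epithelia, stood out at log2 4.11 and 4.39, with 181 and 263 CPM in members. Col4a5 followed at 1.88 and 2.11, and Col4a1 and Col4a2, the collagen chains of all basement membranes, at 1.23 and 1.39, and at 1.61 and 1.99. Lama2 and Lama4 were lower in the members, Lama2 at -0.88 and -1.34. Among 11 transcription factors 9 were measured and 2 were at least 2-fold higher: Tfap2c, an AP-2 factor of epithelia, at 2.89 and 4.22, and Snai2, or Slug, at 3.35 and 4.42. Sox10, a factor of acinar and myoepithelial cells, did not mark the members, with 243 CPM in Csf2-/- and 141 CPM in Csf2+/- members against 268 and 155 in the others.

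Of 22 genes of Gq and calcium signalling 15 were measured and 5 were at least 2-fold higher in both libraries. The L-type calcium channel genes Cacna1c and Cacna1d led, at log2 2.60 and 2.78, and at 2.60 and 3.26, and Cacna1d had 0 CPM in Csf2-/- and 11.6 in Csf2+/- pericytes. Plcb1, a phospholipase C, stood at 1.71 and 2.06 and the endothelin receptor gene Ednra at 1.75 and 1.62. Itpr1, a channel that releases calcium from stores, stood at 1.27 and 1.17. The muscarinic receptor gene Chrm3, the main route of nerve-driven secretion, was at the level of the other nuclei, with 2540 CPM in Csf2-/- and 2502 in Csf2+/- members. Avpr1a had 0 UMIs in members.

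Several secreted factors were also concentrated in the members. Of 24 ligands and binding proteins listed, 11 were measured and 5 were at least 2-fold higher in both libraries. Among them, Igfbp2, which binds insulin-like growth factors, stood at log2 3.79 and 5.50, and Jag2, a Notch ligand, at 3.73 and 4.42. Igfbp5 stood at 1.97 and 2.96 and Kitl, the ligand of the receptor Kit, at 1.80 and 2.66. The other 13 had under 50 UMIs, with Wnt7b, Wnt10b and Areg at 0 in both libraries.

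By rank alone, the 20 genes highest over the other nuclei held Trp63, Myh11 and Cnn1 of the rule and Synpo2, Col17a1, Lama3 and Cdh3 of the lists. The other 13 were Nkain3, Ryr3, Fhod3, Rasl12, Rgs6, Tspan2, Adamts18, Kcnq5, Nkd1, Ntrk3, Kcnh1, Ntng1 and Ctnnd2. Fhod3, a formin that builds actin filaments, had 937 CPM in Csf2-/- and 1110 CPM in Csf2+/- members against 25.5 and 22.1 in the others. Ntrk3, the neurotrophin receptor TrkC, was found in 93.2% of Csf2-/- and 97.2% of Csf2+/- members and in 9.34% and 14.2% of the others. Rgs6, which shortens G protein signals, was found in 94.4% of Csf2-/- and 95.2% of Csf2+/- members, and the potassium channel gene Kcnq5 in 84.4% and 86.9%. Ryr3, a ryanodine receptor that releases stored calcium, stood at log2 5.30 and 5.53 but was found in only 19.2% and 21.1% of members. Nkain3, which encodes a partner of the sodium pump, stood at 5.61 and 5.67 and was found in 22.8% and 23.5%.

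**Figure D3:**
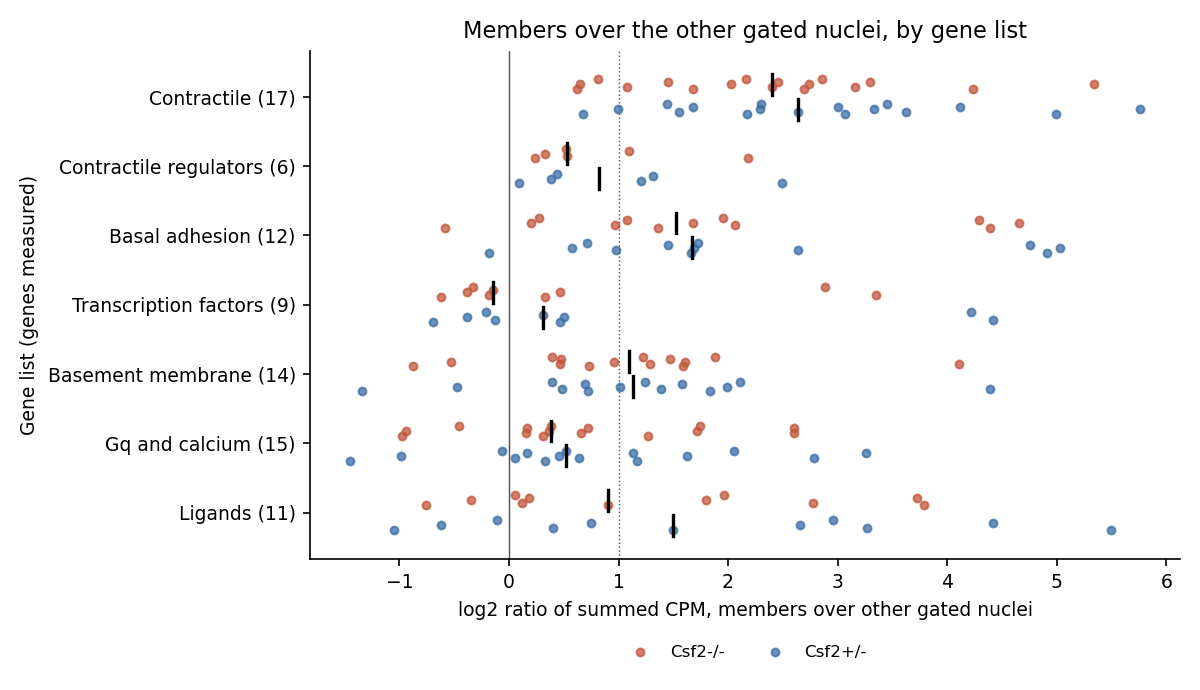
log2 ratio of summed CPM, members over the other gated nuclei, 1 point per measured gene and 1 row per gene list, Csf2-/- above Csf2+/- in each row. Black bars are list medians and the dotted line marks 2-fold; the contractile list has the highest medians, at 2.40 and 2.64.

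The members were not uniform. Clustered among themselves without the rule genes and the secretory genes, they formed 4 sub-clusters, numbered 0 to 3, each with nuclei of both libraries. Sub-cluster 1 held 156 Csf2-/- and 170 Csf2+/- nuclei, sub-cluster 2 held 52 and 33, sub-cluster 0 held 30 and 36, and sub-cluster 3 held 12 and 12. Their leading genes come from the same counts that formed them and are given as a description. Sub-cluster sizes are not compared between libraries, because leading genes themselves differed between them.

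The 9 rule genes summed to 4219 and 4221 CPM in sub-cluster 1 and 5507 and 6257 CPM in sub-cluster 2, Csf2-/- before Csf2+/-. These sums were higher than in the other sub-clusters, but the rule asks for the same number of rule genes at any depth. The order therefore depends in part on depth and is given without any reading. Sub-clusters 1 and 2 differed in Nkain3 among other genes. Nkain3 had a UMI in 39 of 52 Csf2-/- and 30 of 33 Csf2+/- nuclei of sub-cluster 2 and in 13 of 156 and 29 of 170 of sub-cluster 1. The median depth was similar, 2129 UMIs in Csf2-/- and 2798.5 in Csf2+/- nuclei of sub-cluster 1, and 2285 and 3062 in sub-cluster 2. Sub-clusters 0 and 3 were deeper, with medians of 3646.5 and 4034.5 UMIs in Csf2-/- nuclei and 4937 and 3394.5 in Csf2+/- nuclei.

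Sub-cluster 2 was led by Tnc, Hs3st5, Nkain3, Ly6h and Cdh13. Tnc, the matrix protein tenascin-C, was found in 22 of 52 Csf2-/- and 14 of 33 Csf2+/- nuclei, against 4 of 156 and 4 of 170 in sub-cluster 1. Cdh13, a cadherin without a cytoplasmic tail, was found in 37 of 52 Csf2-/- and 28 of 33 Csf2+/- nuclei of sub-cluster 2, and Ryr3 in 33 and 25. Itpr1 was also higher in it, with 2457 CPM in Csf2-/- and 1907 CPM in Csf2+/- nuclei of sub-cluster 2, against 614 and 731 in sub-cluster 1. Of all 5887 genes 79 (1.34%) were at least 2-fold higher in sub-cluster 2 than in sub-cluster 1 in both libraries, among them 1 of 15 calcium genes, 2 of 17 contractile genes and 0 of 12 basal adhesion genes. Myh11 had 2577 CPM in Csf2-/- and 2771 CPM in Csf2+/- nuclei of sub-cluster 2, log2 ratios of 0.78 and 0.79 over sub-cluster 1. Acta2 was found in 37 of 52 Csf2-/- and 29 of 33 Csf2+/- nuclei of sub-cluster 2, and in 95 of 156 and 97 of 170 of sub-cluster 1.

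The leading genes of sub-cluster 1 included Cxcl10, Kcnd2, Tspan2 and Ctnnd2. Cxcl10 rests on 1 nucleus: all 22 Cxcl10 UMIs lay in a single Csf2+/- barcode. Kcnd2, a potassium channel gene, was found in 5 of 156 Csf2-/- and 10 of 170 Csf2+/- nuclei. Tspan2, a tetraspanin, was found in 71 Csf2-/- and 100 Csf2+/- nuclei of sub-cluster 1 and in 9 and 7 of sub-cluster 2. Ctnnd2, a delta-catenin of cell junctions, was found in 111 Csf2-/- and 148 Csf2+/- nuclei of sub-cluster 1 and in 19 and 17 of sub-cluster 2.

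**Figure D4:**
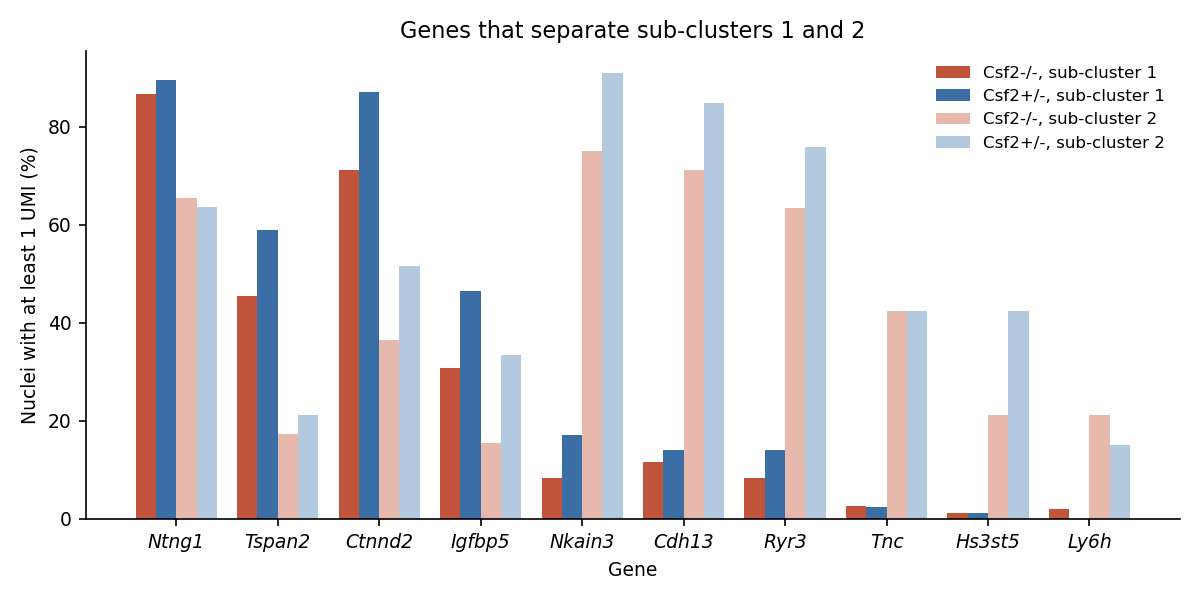
Percentage of nuclei of sub-cluster 1 (dark bars) and sub-cluster 2 (pale bars) with at least 1 UMI of each gene, Csf2-/- left of Csf2+/-. The first 4 genes are found more often in sub-cluster 1 and the last 6 in sub-cluster 2, in both libraries; the genes were picked for this.

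Markers of other cell types were found in every sub-cluster. Sub-cluster 3 was led by Mdga2, Fgf10, Tnxb, Adam19 and Pappa, and 10 of 12 Csf2-/- and 12 of 12 Csf2+/- nuclei held at least 3 of 9 fibroblast markers. Its rule genes summed to 2277 CPM in Csf2-/- and 1934 in Csf2+/- nuclei, and its fibroblast markers to 1933 and 3545, against 2901 and 3091 in nuclei chosen as fibroblasts. Pericyte and smooth muscle markers summed to 279 and 391 CPM in sub-cluster 3. Fgf10, a growth factor of the gland mesenchyme, was found in 12 of 12 Csf2-/- and 11 of 12 Csf2+/- of these nuclei. Sub-cluster 0 was led by Gpc5, Stpg1, Slc8a3, Cmtm8 and Cracr2a and held all 4 of the deepest barcodes. Acinar markers were present in it at 3 or more in 83.3% of Csf2-/- and 86.1% of Csf2+/- nuclei, against 79.9% and 74.7% of the other gated nuclei. At least 3 luminal duct markers were found in 46.7% of Csf2-/- and 52.8% of Csf2+/- nuclei of sub-cluster 0, against 19.0% and 27.7% of the other gated nuclei. Sub-cluster 0 was deeper, with a median of 3646.5 UMIs in Csf2-/- and 4937 in Csf2+/- nuclei. The other gated nuclei had 2004.5 and 2824, so these shares were not compared at equal depth. Macrophage markers were highest in sub-cluster 1, at 167 CPM in Csf2-/- and 174 CPM in Csf2+/- nuclei, against 186 and 238 in the other gated nuclei. Cracr2a, a calcium sensor gene, was found in 23 of 30 Csf2-/- and 28 of 36 Csf2+/- nuclei of sub-cluster 0, against 55.6% and 62.6% of the other gated nuclei. By summed CPM it was not higher there, with 473 and 469 CPM in sub-cluster 0 against 539 and 554 in the other gated nuclei. The Csf2-/- value rests largely on the 4 deepest barcodes, which held 274056 of the 380429 Csf2-/- UMIs of sub-cluster 0. A single Csf2-/- nucleus held 60 of its 180 Cracr2a UMIs. Whether barcodes of these sub-clusters held more than 1 nucleus was not tested. At a finer resolution of 1.0 there were 9 sub-clusters, among which a group of 48 Csf2-/- and 32 Csf2+/- nuclei was again led by Hs3st5 and Tnc, and a group of 17 Csf2-/- and 31 Csf2+/- nuclei was led by Cxcl10, F13a1 and Mrc1, the last 2 being macrophage markers.

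The Csf2-/- members were set against the Csf2+/- members gene by gene. With all members, 85 of 5887 genes (1.44%) were at least 2-fold higher in the Csf2-/- library and 83 (1.41%) at least 2-fold lower. Without the 4 barcodes the numbers were 55 (0.934%) and 72 (1.22%). Without the 8 secretory genes in the total, 119 of 5879 genes were higher and 55 lower. With the estimated free RNA subtracted 468 of 5853 were higher and 151 lower. The median log2 ratio over all genes was -0.07 with and -0.08 without the 4 barcodes.

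Of the 17 contractile genes 0 were called in either direction, a number near that background, and the median was -0.25 with all members and 0.01 without the 4 barcodes, when 9 lay above and 8 below 0. Myh11 had 1069 CPM in Csf2-/- and 1457 CPM in Csf2+/- members, a log2 ratio of -0.45 (-0.57 to -0.32) that became 0.07 (-0.06 to 0.19) without the 4. Acta2 had 349 CPM in Csf2-/- and 356 in Csf2+/- members, with -0.03 (-0.26 to 0.21) and 0.47 (0.23 to 0.70) without the 4. Cnn1 had 90 UMIs in Csf2-/- and 68 in Csf2+/- members, with 0.32 (-0.15 to 0.79) and 0.84 (0.37 to 1.32). Outside the members Acta2 stood at 0.69 in the other gated nuclei and 0.45 in the free RNA, and Cnn1 at 0.51 and 0.80. The rule chose the members by these genes and by Trp63, so their values are given without any reading, and the part of free RNA in them was not tested. With each nucleus thinned to 1000 UMIs, Acta2 would be found in 37.6% of Csf2-/- and 30.2% of Csf2+/- members, Myh11 in 72.0% and 71.8%, and Trp63 in 61.0% and 62.8%.

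Trp63 had 630 UMIs in Csf2-/- and 963 in Csf2+/- members, a log2 ratio of -0.70 (-0.85 to -0.55) that became -0.21 (-0.35 to -0.06) without the 4 barcodes. The 12 basal adhesion genes had a median of -0.36 with and 0.01 without them, again with 0 called. Col17a1 stood at -0.23 (-0.65 to 0.18) and 0.30 (-0.12 to 0.71). The 14 basement membrane genes had a median of -0.46 and -0.12, with 11 of 14 below 0 without the 4 and a median of -0.33 in the other gated nuclei. Of all 5887 genes 3478 lay below 0 without the 4. Col4a1 had 218 UMIs in Csf2-/- and 349 in Csf2+/- members, -0.77 (-1.02 to -0.52) with and -0.39 (-0.65 to -0.14) without them, and stood at -0.60 in the other gated nuclei. The 15 calcium genes had medians of -0.19 and -0.14.

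The ligand list had the lowest median of the lists plotted, -0.75 with all members and -0.39 without the 4 barcodes, with 9 of 11 genes below 0 either way. Of all 5887 genes 3358 lay below 0 with all members and 3478 without the 4. The ligand genes had a median of -0.27 in the other gated nuclei, and in the free RNA a median of -0.56 with 11 of 11 below 0. All 5887 genes had medians of -0.10 and -0.42 there, with 4994 below 0 in the free RNA. With all members 4 ligand genes were at least 2-fold lower in the Csf2-/- library (Igfbp2, Igfbp5, Jag1 and Kitl), against 1.41% of all genes. Without the 4 barcodes 1 was (Jag1), against 1.22%. Igfbp2 had 80 UMIs in Csf2-/- and 207 in Csf2+/- members, a log2 ratio of -1.46 (-1.85 to -1.08), or -0.97 (-1.36 to -0.59) without the 4. It was found in 24.4% of Csf2-/- and 41.8% of Csf2+/- members, or 12.4% and 20.9% thinned to 1000 UMIs, while in the other gated nuclei its ratio was 0.25. Within sub-cluster 1 Igfbp2 was found in 36 of 156 Csf2-/- and 77 of 170 Csf2+/- nuclei, -1.35 (-1.87 to -0.86), and within sub-cluster 2 the ratio was -0.36 (-1.12 to 0.40). Kitl had 255 UMIs in Csf2-/- and 484 in Csf2+/- members, -1.01 (-1.24 to -0.79), or -0.62 (-0.85 to -0.39) without the 4, against -0.15 in the other gated nuclei. It was lower in both main sub-clusters, by -0.45 (-0.73 to -0.16) in sub-cluster 1 and -1.40 (-1.95 to -0.88) in sub-cluster 2.

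Igfbp5 had 100 UMIs in Csf2-/- and 227 in Csf2+/- members, -1.27 (-1.63 to -0.93) with and -0.80 (-1.16 to -0.45) without the 4. It stood at -0.27 in the other gated nuclei and -0.56 in the free RNA. Jag1, a Notch ligand, had 24 UMIs in Csf2-/- and 47 in Csf2+/- members, -1.06 (-1.83 to -0.32) and -1.03 (-1.92 to -0.20). Its ratio turned to 0.57 with each nucleus thinned to 1000 UMIs, and was -1.56 (-2.79 to -0.49) in sub-cluster 1 and 1.5 (-0.90 to 4.80) in sub-cluster 2. Dll1, another Notch ligand, had 7 UMIs in Csf2-/- and 27 in Csf2+/- members, under the 50 UMIs required. Jag2 stood at -0.65 (-0.99 to -0.32) and, without the 4, at -0.17 (-0.52 to 0.17).

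Among the transcription factors, Sox10 was higher in the Csf2-/- library. It had 217 UMIs in Csf2-/- and 119 in Csf2+/- members, 0.78 (0.45 to 1.11), or 0.96 (0.62 to 1.31) without the 4 barcodes, and was higher by 0.79 in the other gated nuclei too. The 9 transcription factors had medians of -0.35 and -0.05.

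**Figure D5:**
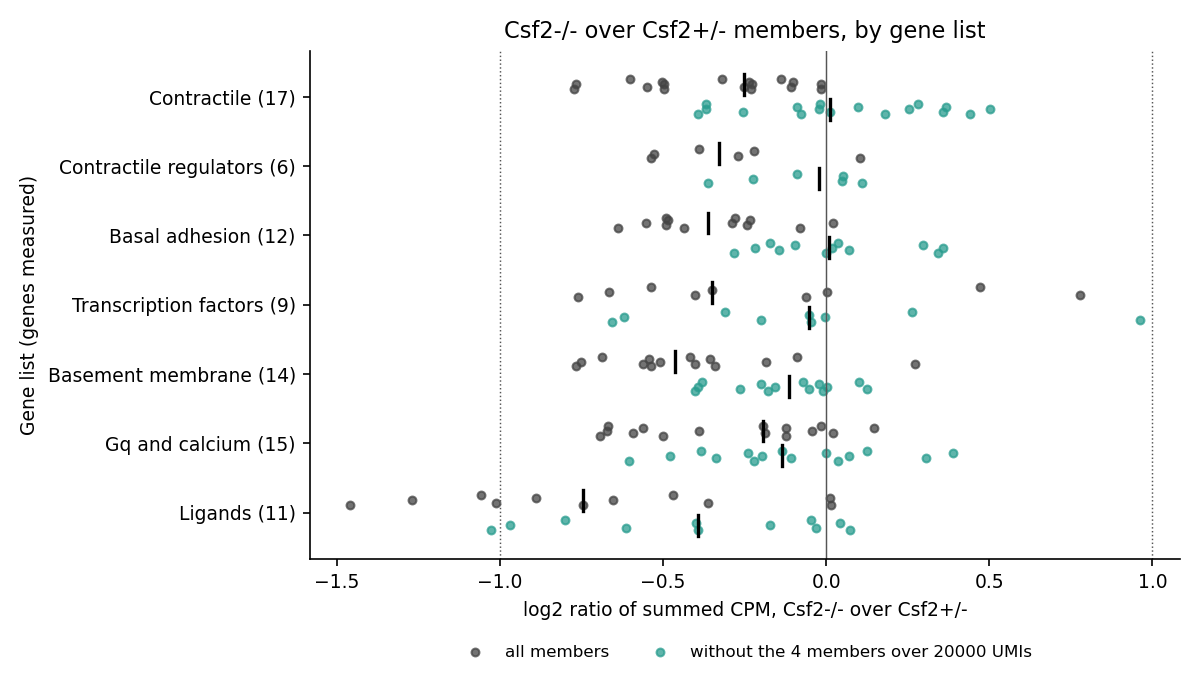
log2 ratio of summed CPM, Csf2-/- over Csf2+/- members, 1 point per measured gene and 1 row per gene list, with all members (grey, above) and without the 4 Csf2-/- members over 20000 UMIs (green, below). Black bars are list medians and dotted lines mark 2-fold; the contractile median moves to 0.01 without the 4, and the ligand median stays the lowest at -0.39.

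The 10 genes highest in Csf2-/- members by the interval bound nearest to 0 were Pglyrp1, Nupr1, Gnb5, Cmtm8, Dennd2d, Kif26b, Sidt1, Ralgapa2, Lamtor4 and Kcnn4. Pglyrp1, which binds bacterial peptidoglycan, had 63 UMIs in Csf2-/- and 11 in Csf2+/- members, 2.43 (1.49 to 3.50), and was also higher in the other gated nuclei (1.65) and in the free RNA (1.80). Nupr1, a stress-induced nuclear protein gene, had 272 and 88 UMIs, 1.54 (1.19 to 1.90), against 1.03 in the other gated nuclei and 1.30 in the free RNA. Kif26b, a kinesin family gene among the top 10 of sub-cluster 2, had 47 UMIs in Csf2-/- and 13 in Csf2+/- members, 1.77 (0.86 to 2.78), against -0.05 in the other gated nuclei. Cmtm8, Sidt1 and Kcnn4 came down to 0.44, 0.27 and 0.17 without the 4 deepest barcodes, and Ralgapa2 to 0.31.

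The 10 lowest were Igfbp2, Mb21d2, Adamts9, Ctnnd2, Igfbp5, Diaph3, Adamts17, Irx4, Pdgfc and Synpo. Adamts9, a matrix protease gene, had 318 UMIs in Csf2-/- and 692 in Csf2+/- members, -1.21 (-1.41 to -1.02), or -0.81 (-1.01 to -0.61) without the 4, against -0.79 in the other gated nuclei. Ctnnd2 had 350 and 731 UMIs, -1.15 (-1.34 to -0.97), or -0.63 (-0.82 to -0.45) without the 4, and lay at -0.55 (-0.76 to -0.35) within sub-cluster 1. Irx4, a homeobox factor gene, had 15 and 47 UMIs, -1.74 (-2.68 to -0.87), or -1.21 (-2.15 to -0.34) without the 4. Synpo, or synaptopodin, which binds actin, had 27 and 71 UMIs, -1.48 (-2.18 to -0.83), or -1.07 (-1.79 to -0.39). Mb21d2 had 47 and 129 UMIs, -1.55 (-2.06 to -1.05), or -1.18 (-1.72 to -0.67). In the other gated nuclei Ctnnd2 stood at -0.24, Irx4 at -0.35, Synpo at -0.43 and Mb21d2 at -0.20. In the free RNA Ctnnd2 stood at -1.21, Irx4 at -0.37, Synpo at -0.64 and Mb21d2 at -0.38.

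Which genes ranked at the ends depended on the 4 barcodes, since only 3 of the 10 highest and 2 of the 10 lowest were named again without them. The lowest then included Nr4a3, with 12 UMIs in Csf2-/- and 54 in Csf2+/- members, and Ppargc1a, with 96 and 285. Their ratios were -1.73 (-2.77 to -0.81) and -1.13 (-1.48 to -0.79) in members and -1.50 and -1.57 in the other gated nuclei, the same direction as in the members. The highest then included Tnc, with 98 UMIs in Csf2-/- and 45 in Csf2+/- members, 1.56 (1.04 to 2.11), which lay at 1.03 (0.46 to 1.63) within sub-cluster 2.

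Proliferation could not be followed gene by gene. The 15 cell cycle genes summed to 116 UMIs in Csf2-/- members (68 without the 4 deepest) and 166 in Csf2+/- members. At least 3 of these genes were found in 4 of 250 and 5 of 251 members, or 1.6% and 1.99%, against 1.96% and 1.97% of the other gated nuclei. Without the 4 deepest barcodes the Csf2-/- count was 2 of 246 (0.813%, 0.0986 to 2.91). Within sub-clusters 1 and 2 the counts were 0 of 208 Csf2-/- and 3 of 203 Csf2+/- nuclei.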

How the data were processed

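Single-nucleus RNA was measured in 2 libraries of whole salivary gland, made with the 10x 3' v2 chemistry per the labels' protocols. The authors deposited raw counts, the number of UMIs of each gene in each barcode, made with Cell Ranger 7.0.0 on GRCm39 per the submitters' processing notes. The annotation, and whether intronic reads were counted, are not given in the sources used here. The lowest barcode had 430 UMIs in the Csf2-/- library and 531 in the Csf2+/- library, so barcodes had been selected before deposit.

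The members, lists and alternatives were chosen with earlier results of these data known. UMIs were summed over the members of each library, scaled to CPM and compared as log2 ratios with exact conditional binomial 95% intervals, shares with exact Clopper-Pearson intervals. A 0 was put at a floor of 3 counts. Genes with at least 50 member UMIs over both libraries were compared, leaving out symbols that occur more than once. The free RNA sample was the barcodes under 1000 UMIs with at least 27% secretory UMIs. Other types were nuclei outside the members with at least 3 markers of the type.

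Named were the 9 rule genes, genes of the lists, the 10 highest and 10 lowest between libraries by the interval bound nearest to 0, the 20 highest over the other gated nuclei by the lower of both libraries, and 5 leading genes per sub-cluster. A few genes that the rule names are not reported here. Genes named outside this rule (Nr4a3 and Ppargc1a) were chosen after their values were seen, as were the genes followed within sub-clusters.

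Members were clustered without rule, secretory, mitochondrial, ribosomal and sex-linked genes, Csf2 and the 100 most abundant free RNA genes, on 1000 variable genes, 15 components and 15 neighbours with Leiden resolution 0.5 (Scanpy 1.11.5, igraph 0.11.9). Intervals were computed with SciPy 1.17.1 under Python 3.11.15, tables with pandas 2.3.3 and figures with Matplotlib 3.10.9. The ratios were tested on simulated data. The simulation drew counts per gene and library without nuclei, so it cannot show the effect of UMIs gathered in few nuclei. Thinned shares of nuclei with a gene are the expected shares when 1000 UMIs are drawn from each nucleus, with the members unchanged. The thinned share of members was instead counted after the rule was applied to the thinned barcodes.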

Additional observations from a re-analysis of the deposited data

How the results depend on the processing

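The log2 ratio of the share of members was below 0 under all alternatives run, but not always beyond counting error. It was -0.65 (-0.91 to -0.39) in the main setting and -0.34 (-0.64 to -0.04) with at least 2000 UMIs. Its interval spanned 0 under 15% secretory UMIs (-0.31, -0.71 to 0.09), thinned to 1000 UMIs (-0.21, -0.61 to 0.20) and over all barcodes (-0.12, -0.38 to 0.13). The main numbers of genes at least 2-fold higher and lower in the Csf2-/- library, 85 and 83 of 5887, differed between alternatives. They were 99 and 106 of 5511 with at least 2000 UMIs and 104 and 94 of 4401 with at least 4 rule genes. They were 35 and 55 of 5253 for members under 20000 UMIs and 26 and 46 of 4085 for sub-clusters 1 and 2 alone. Without members holding 3 markers of another non-epithelial type they were 37 and 54 of 4742. Without members holding Rgs5, Pdgfrb or Notch3 they were 29 and 53 of 5065, and thinned they were 12 and 3 of 662. In each of these the 50 UMI minimum was applied again, so fewer genes were compared. With a minimum of 20 UMIs the numbers were 290 and 251 of 9007, and with no minimum 870 and 817 of 12208. With the estimated free RNA subtracted (37.5% of Csf2-/- and 34.8% of Csf2+/- member UMIs) they were 468 and 151 of 5853. Without the 8 secretory genes in the total, 119 of 5879 were higher and 55 lower. The cause was not tested for these. Without the 4 members over 20000 UMIs the list medians moved to 0.01 from -0.25 (contractile), to 0.01 from -0.36 (basal adhesion) and to -0.12 from -0.46 (basement membrane). Among single genes, Jag1 turned to 0.57 and Sidt1 to -0.21 when thinned.

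No paired analysis was possible because each genotype had 1 library. The keratin and cell cycle genes and the Notch ligand genes Jag1 and Dll1 had few UMIs in the members, and the intervals hold counting error only.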
